A study of Mus musculus with 48 samples.

Results

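The genes described here encode the proteins of the cytosolic ribosome. They were taken by symbol and biotype: every gene whose symbol reads Rpl or Rps followed by a digit, Rplp followed by a digit, or Rpsa, that is not an Rps6k kinase and that the deposited FPKM table marks as protein coding. This rule gave 94 genes of the 56748 in that table. It takes in Rps19bp1, which encodes a protein that binds RPS19 and is not a subunit, and 7 genes with pseudogene symbols (-ps). Rps27rt and Rps23rg1, whose symbols also mark copies, are members too. The rule leaves out Fau and Rack1, which also encode ribosomal proteins and are reported beside the others. Of the 94 genes, 86 passed the filter on low counts and were tested, and 4 were listed at 0 in every library.

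The mRNA was measured by poly(A) RNA-seq in tibialis anterior muscle, a fast hindlimb muscle, of male mice aged 39 to 55 weeks. WT mice, which carry no Cre, were compared with FoxP1SkmKO mice, in which homozygous floxed FoxP1 alleles are recombined by Cre under the ACTA1 promoter of skeletal muscle fibers, so that other cell types of the muscle keep FoxP1. The sample labels give C57BL/6J for WT, whereas the series text gives FoxP1fl/fl without Cre, and the difference could not be settled. KPC mice received 250000 cells of a murine KPC pancreatic cancer line into the pancreas and control mice received a sterile saline or PBS injection. All mice, control and KPC, were entrained to 12 h of light and 12 h of dark and then held in constant darkness, and muscles were taken at 6 circadian times from CT18 to CT38 (hours from the start of darkness). There were 2 mice in each of the 24 groups of genotype, condition and time, 48 libraries in all, so p-values rest on the spread between these mice.

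A ribosome is assembled in the nucleolus from ribosomal RNA and one copy of almost every ribosomal protein, and the pools of the proteins are kept in proportion, chiefly by translation and by breakdown of unassembled protein. Ribosomal protein mRNAs typically begin with a C and a run of pyrimidines, the terminal oligopyrimidine (TOP) tract, through which mTOR signaling and the RNA-binding protein LARP1 control their translation and stability. In striated muscle the paralog RPL3L takes the place of RPL3 in many ribosomes, and ribosome number is one determinant of how much protein a muscle fiber can make.

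Start sites are shown first, since the TOP tract is a known feature of ribosomal protein mRNAs that the choice of genes by symbol did not use. RefSeq start windows on GRCm38.p6 matched 67 of the 94 genes, with 79 windows, some genes having more than one annotated start. Of these windows 41.8% had a C within 5 bases of the start followed by at least 4 pyrimidines, against 18.3% of all 32851 windows, so 31 of the 67 genes had a start of this kind. The windows below hold 10 bases before the start and 20 from it on. Capitals mark the pyrimidine tract, and Rps3 and Rpl3l are given as members whose RefSeq start has none. Rpl15 is at chr14:18270967-18270996 (minus strand), Rpl27a at chr7:109519185-109519214 (plus), Rpl35 at chr2:39005112-39005141 (minus), Rpl35a at chr16:33056472-33056501 (plus), Rps6 at chr4:86857348-86857377 (minus), Rps3 at chr7:99483690-99483719 (minus) and Rpl3l at chr17:24727816-24727845 (plus).
Rpl15: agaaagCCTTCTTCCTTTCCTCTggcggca
Rpl27a: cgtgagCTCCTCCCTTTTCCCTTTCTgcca
Rpl35: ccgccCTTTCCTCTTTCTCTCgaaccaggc
Rpl35a: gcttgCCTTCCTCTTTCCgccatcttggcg
Rps6: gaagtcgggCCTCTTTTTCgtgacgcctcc
Rps3: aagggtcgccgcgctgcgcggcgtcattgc
Rpl3l: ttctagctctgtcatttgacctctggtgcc

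In the 250 bases before to 50 bases after each start, the ETS core CCGGAA stood in 46.8% of the ribosomal protein windows and in 14.9% of all windows, on either strand. The YY1 motif AAGATGGC was in 10.1% against 2.75%, the GC box GGGCGG in 59.5% against 35.7%, the TATA box TATAAA in 8.86% against 13.6%, the E-box CACGTG, which clock proteins can bind, in 10.1% against 7.15%, and the forkhead motif TGTTTAC in 1.27% (1 window) against 3.65%. Each motif was counted on its own and matches of different motifs may overlap. A match is a run of letters and not a measured binding site.

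Paralogs decide how well single genes can be read. The coding sequences below start at the first coding base (GENCODE M39 on GRCm39), and capitals mark bases that differ from the first gene of the pair. Rps27 and Rps27rt, a copy on chromosome 9, were identical over all 255 coding bases, whereas Rps27l shared 76.1% with Rps27 and Rpl3l 73.2% with Rpl3.
Rps27: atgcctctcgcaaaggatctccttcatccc
Rps27rt: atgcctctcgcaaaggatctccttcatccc
Rps27l: atgccCctGgcTaGAgatctGTtAcaCccT
Rpl3: atgtctcacaggaaattctcagctcccagg
Rpl3l: atgtcCcacCggaaGttctcTgcCccTCgg

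Rpl10-ps3 was identical to Rpl10 in its coding sequence, Rpl9-ps6 differed from Rpl9 at 1 base of 579, Rplp2-ps1 from Rplp2 at 2 of 348 and Rps18-ps6 from Rps18 at 4 of 459. Counts of such pairs are uncertain, since reads from one can be assigned to the other or dropped. Lower identities were found for Rpl36a and Rpl36al (87.8%), Rpl10 and Rpl10l (84.8%), Rpl22 and Rpl22l1 (66.9%), Rpl39 and Rpl39l (54.3%) and Rpl7 and Rpl7l1 (52.8%).

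Libraries held 14480446 to 20787135 counts on genes (median 16601271), and mice of one group differed by 5.15 to 17.4 times the sampling variance, so none was a duplicate. Foxp1, counted over the whole gene, had a mean of 0.630 FPKM (SD 0.140) in WT control mice, 0.629 (SD 0.102) in WT KPC mice, 0.578 (SD 0.0682) in FoxP1SkmKO control mice and 0.544 (SD 0.0744) in FoxP1SkmKO KPC mice, each over 12 mice. The difference of Foxp1 between genotypes was not called in control mice (log2 fold change -0.11, SE 0.07, adjusted p = 0.459, edgeR quasi-likelihood with Benjamini-Hochberg adjustment, as for all adjusted p below) or in KPC mice (-0.20, SE 0.07, adjusted p = 0.246), so whole-gene counts did not separate the genotype labels. Fast fiber genes dominated every library (summed FPKM of 10 genes 43090 to 55560), and Cpa1, Prss1 and Amy2a5, markers of pancreatic acinar cells, were listed at 0 throughout. In whole muscle, fewer cells of a type and less RNA per cell cannot be told apart.

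Reads counted on the ribosomal protein genes were a small part of each library, and the counted levels were very unequal between genes. Reads counted on the 321 ribosomal protein pseudogenes, a mean of 0.0356% of counts, are not included. The 94 genes took 0.711% to 1.08% of all counts in a library, with a mean of 0.878% (SD 0.0683, n = 48). FPKM, the reads of a gene scaled by its exon length and by the size of the library, compares genes per length: 11 genes had a mean of at least 100 FPKM, 62 of 10 to 100, 9 of 1 to 10 and 12 under 1. The median of the 86 tested genes was 42.5 FPKM.

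Rplp1, which encodes a protein of the acidic stalk that recruits elongation factors, was highest at 586 FPKM (SD 62.4, n = 48), followed by Rpl3l at 319 (SD 21.7), Rps2, a protein of the mRNA entry region, at 230 (SD 26.6), Rpl4, which lines the exit tunnel, at 226 (SD 11.7) and Rpl36 at 222 (SD 32.0). Between neighbours in this order the gaps from Rplp1 to Rpl3l and from Rpl3l to Rps2 exceeded these SDs, whereas Rps2, Rpl4 and Rpl36 lay within them. The stalk partners Rplp0 and Rplp2 can be compared with Rplp1 on the same scale: Rplp0 had a mean of 132 FPKM (SD 12.0).

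The lowest tested genes were Rpl29 (0.211 FPKM), Rps10 (0.281), Rpl10-ps3 (0.457), Rpl24 (0.546) and Rpl13a (1.26). RPL29, RPS10, RPL24 and RPL13A are regular subunits. For some parent genes a processed copy had the higher level. Rps10-ps2 had 47.1 FPKM against 0.281 for Rps10, Rpl17-ps10 had 71.9 against 12.7 for Rpl17, Rps12-ps3 had 53.8 against 20.7 for Rps12, and Rpl21-ps15 had 38.3 against 3.36 for Rpl21. Of 321 ribosomal protein pseudogenes in the table, 178 had a count in some library, 53 a mean of at least 1 FPKM, and 7 were above their parent gene, for 4 parents. How many reads of these 4 parents were counted on their copies was not tested. Rps18-ps6, Rpl10l, Rplp2-ps1 and Rpl36-ps4 were listed at 0 in every library, and Rpl10l is known as a testis paralog of Rpl10.

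**Figure D1:**
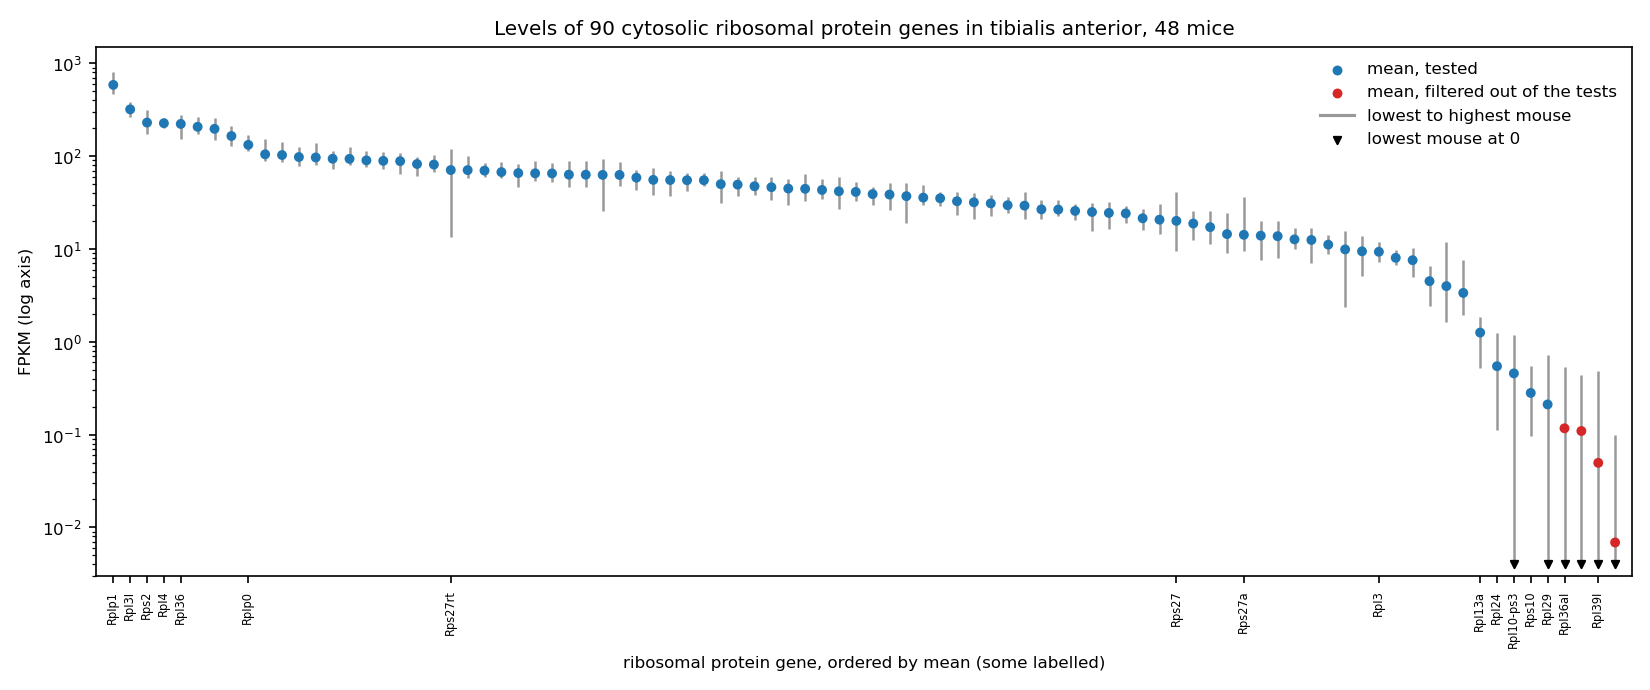
Mean FPKM (log axis) of the 90 ribosomal protein genes above 0 in some library, ordered by mean, with a bar from the lowest to the highest of 48 mice. Blue marks tested genes, red marks genes filtered out of the tests, and a triangle marks a lowest mouse at 0; a few genes are labelled. Rplp1 and Rpl3l lead at means of 586 and 319 FPKM, and Rps27rt has one of the widest bars among the well expressed genes.

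Nearly all of the counted FPKM of the pair Rpl3 and Rpl3l was on Rpl3l, the muscle paralog. The pseudogene Rpl3-ps1 had a mean of 3.68 FPKM, and how many reads of Rpl3 were counted on copies was not tested. Rpl3l lay between 265 and 383 FPKM and Rpl3 between 7.19 and 12.0, a ratio of 23.3 to 45.1 (mean 34.7, SD 4.59, n = 48). The ratio was 34.4 (SD 3.77) in WT control, 34.0 (SD 5.38) in WT KPC, 35.4 (SD 5.47) in FoxP1SkmKO control and 34.9 (SD 3.93) in FoxP1SkmKO KPC mice, 12 mice each, so the 4 groups overlapped widely. Rpl22l1 had a mean of 7.57 FPKM against 25.7 for Rpl22, Rpl7l1 had 8.03, and Rps27l, a paralog induced by p53, had 38.6. Rpl36al and Rpl39l were at 0.117 and 0.0496 FPKM.

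Levels were steady from mouse to mouse for most genes. The coefficient of variation over the 48 libraries, group differences included, had a median of 11.2% among the tested genes and was lowest for Rpl4 (5.17%), Rpl6 (5.56%) and Rpl3l (6.80%). It was highest for Rpl29 (78.0%) and Rpl10-ps3 (51.5%), both under 1 FPKM, and among genes above 10 FPKM for Rps27 (49.2%), Rps27rt (41.6%) and Rps27a (41.2%), which encodes RPS27A fused to ubiquitin.

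Rps27 and Rps27rt varied in opposite directions. Rps27 lay between 9.51 and 41.3 FPKM (median 16.2) and Rps27rt between 13.6 and 119 (median 76.2). Rps27 was at least 1.5 times its median in 16 mice, Rps27rt was at most its median divided by 1.5 in 16 mice, and 12 mice were in both sets. The share of the pair's reads counted on Rps27rt ran from 10.97% to 79.0%, while the reads of both genes together varied by 15.5% (coefficient of variation, scaled to library size). These high and low mice were found in every genotype and condition: the share on Rps27rt had a mean of 54.6% (SD 20.8) in WT control, 56.2% (SD 20.6) in WT KPC, 55.3% (SD 23.0) in FoxP1SkmKO control and 55.9% (SD 21.4) in FoxP1SkmKO KPC mice. By time they were uneven: Rps27 was high in 6 of the 8 mice at CT38, 3 at CT22, 3 at CT34, 2 at CT26 and 1 each at CT18 and CT30, and it was 0.81 higher at CT38 than at the other times on the log2 scale (SE 0.19, adjusted p = 0.00516). Rps27a was high by the same measure in 6 mice, 3 of which also had high Rps27. Since the coding sequences of Rps27 and Rps27rt are identical, as printed above, differences of either gene alone are reported as uncertain.

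**Figure D2:**
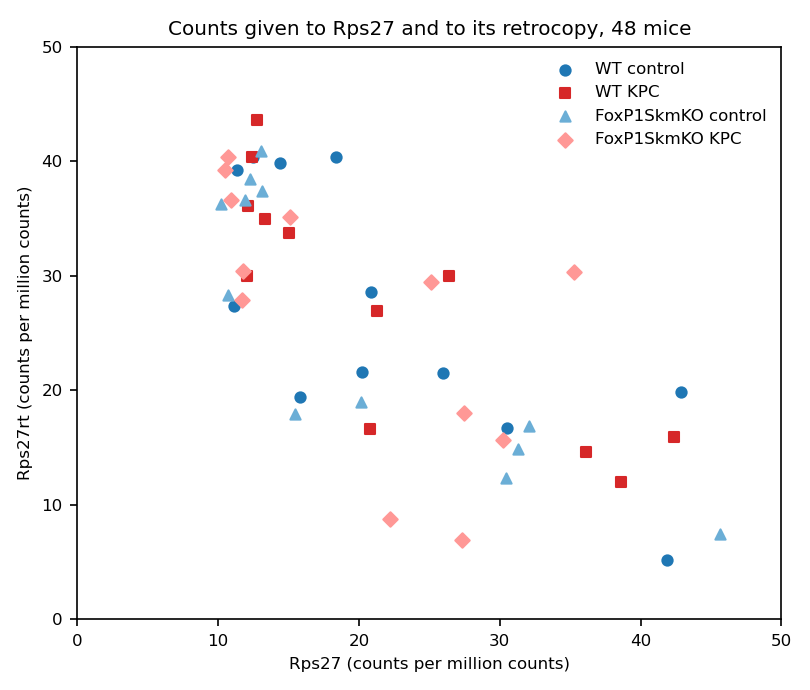
Counts (CPM, scaled to library size) given to Rps27 (horizontal axis) and to its copy Rps27rt (vertical axis), one point per mouse (48 mice), with symbols by genotype and condition. Mice with Rps27 above its median of 17.1 CPM mostly have Rps27rt in the lower part of its range, and all 4 groups are found at both ends.

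Across the 6 times, the share of counts on ribosomal protein genes was lowest at CT18 and highest in one group at CT26. It had a mean of 0.810% at CT18 (SD 0.0621), 0.902% at CT22 (SD 0.0544), 0.892% at CT26 (SD 0.103), 0.892% at CT30 (SD 0.0360), 0.854% at CT34 (SD 0.0236) and 0.916% at CT38 (SD 0.0575), 8 mice each. The 2 WT control mice at CT26 had 1.08% and 1.01%, and WT KPC mice at CT26 had 0.826% and 0.879%. The lowest value, 0.711%, was in a FoxP1SkmKO control mouse at CT18. These are shares of a total and are described without a test.

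**Figure D3:**
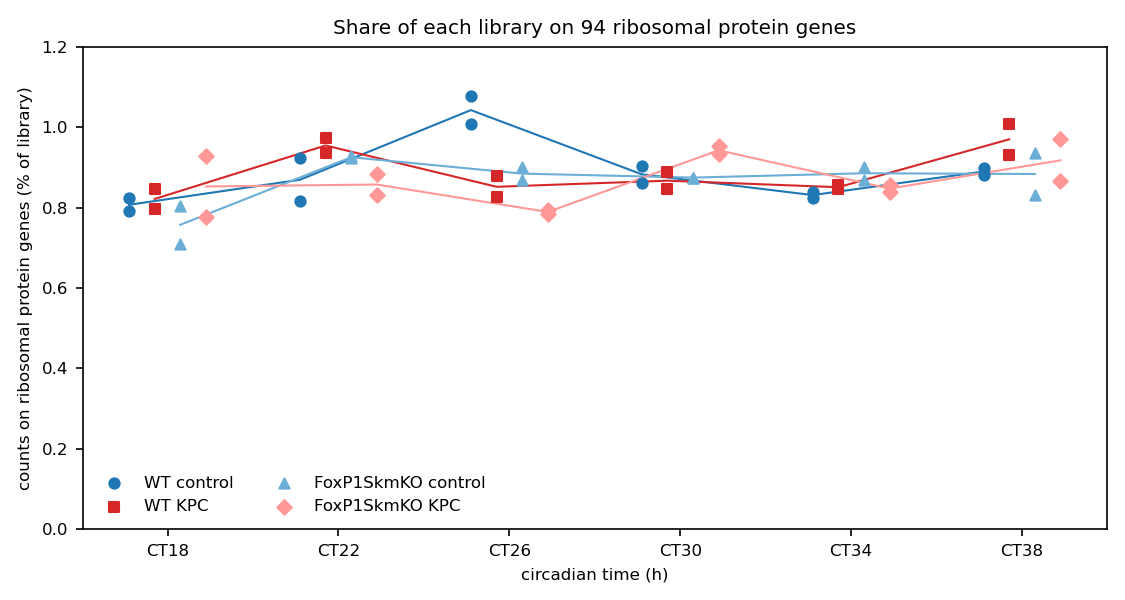
Percent of all gene counts on the 94 ribosomal protein genes in each library (points) by circadian time, with a line through the mean of the 2 mice of each genotype and condition. The highest library is a WT control mouse at CT26 (1.08%), followed by a WT KPC mouse at CT38 and the other WT control mouse at CT26 (both 1.01%).

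Averaged over the 6 times, no ribosomal protein gene passed the test for KPC in either genotype. In WT mice 0 of the 86 genes were called, against 1.78% of all 15637 genes tested, 2 of them had an unadjusted p under 0.05 (15.2% of all genes), and DESeq2 on all 48 libraries also called 0. The median log2 fold change of the 86 genes was 0.00, with 44 above 0 and 42 below, and the median over all genes was 0.00. In FoxP1SkmKO mice 0 of 86 genes were called with edgeR and 0 with DESeq2, against 0.422% of all genes, 3 had an unadjusted p under 0.05 (12.4%) and the median was 0.03.

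Rpl4 had the smallest standard error of the 86 genes. It was at 222 FPKM in WT control (SD 11.4, n = 12) and 231 in WT KPC mice (SD 11.04), and at 222 (SD 6.48) in FoxP1SkmKO control and 231 in FoxP1SkmKO KPC mice (SD 14.2), with a log2 fold change of 0.06 in WT (95% interval 0.01 to 0.11, adjusted p = 0.293) and 0.06 in FoxP1SkmKO mice (0.01 to 0.11, adjusted p = 0.356). Rps27a had the lowest p in WT mice (-0.34, SE 0.13, adjusted p = 0.190) and Rpl9-ps6 in FoxP1SkmKO mice (0.19, SE 0.08, adjusted p = 0.347). The largest values besides Rps27a were -0.30 (SE 0.27) for Rpl24 and -0.23 (SE 0.19) for Rps18-ps5 in WT mice, and 0.41 (SE 0.27) for Rps10, 0.34 (SE 0.51) for Rpl29 and 0.20 (SE 0.19) for Rps18-ps5 in FoxP1SkmKO mice, all from genes with low counts and none called. The difference of the KPC effect between genotypes was called for 0 genes of 86 and 0 of all genes (0%) by edgeR and for 0 of 90 by DESeq2, with 0 of 86 under an unadjusted p of 0.05 (6.52% of all genes), and it was largest for Rps18-ps5 (0.43, SE 0.27), Rpl29 (0.33, SE 0.67) and Rps28 (0.31, SE 0.21).

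Few genes around the ribosome were called in the averaged comparison. Rack1 and Fau gave log2 fold changes of 0.08 and 0.05 in WT KPC mice, neither called. Of 15 translation factor and related genes whose mRNAs have a TOP tract, Eef2, the elongation factor that moves the ribosome along the mRNA, rose (0.26, SE 0.05, adjusted p = 0.00724), and Hnrnpa1 (0.13, adjusted p = 0.0523) and Eif4b (0.19, adjusted p = 0.0591) did not pass. None of 24 other translation factors passed (lowest adjusted p 0.158, Eif4g3), nor any of 35 ribosome biogenesis genes (0.3004, Ddx21). Of 26 regulators Mycn, a MYC family factor, fell (log2 fold change -0.86, SE 0.23, adjusted p = 0.0428), while Tsc1 (0.12) and Tsc2 (0.12), inhibitors of mTOR signaling, had adjusted p = 0.0747 and 0.0875. In FoxP1SkmKO mice none of these 5 lists had a called gene, and Eif4g3 had the lowest p (0.14, adjusted p = 0.0587).

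At single times, WT muscle at CT26 was the exception. There 28 of 86 ribosomal protein genes were lower in KPC than in control mice and 0 were higher, against 7.18% of all genes called and 2.53% called lower. The median log2 fold change was -0.32 against 0.00 over all genes, 82 of the 86 values were below 0, and 58 had an unadjusted p under 0.05, all lower (21.4% of all genes). Small subunit genes (15 of 34 called, median -0.36) and large subunit genes (13 of 51, median -0.30) were both among the genes called. In 74 genes both control mice stood above both KPC mice, an order seen in 24.4% of all genes.

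Rps14, a platform protein of the small subunit, was at 87.8 and 83.1 FPKM in WT control and 65.5 and 59.1 in WT KPC mice, and at 69.3, 56.7 and 51.0, 46.9 in the corresponding FoxP1SkmKO mice (-0.46 in WT, SE 0.09, adjusted p = 0.00167). Rps15, which lies in the decoding head region, was at 258 and 242 FPKM against 190 and 184 in WT, and at 228 and 199 against 184 and 164 in FoxP1SkmKO mice (-0.42 in WT, SE 0.09, adjusted p = 0.00226). Rps3, at the mRNA entry site, was at 48.7 and 41.7 FPKM against 35.1 and 33.5 in WT, and 38.5 and 32.8 against 30.4 and 29.6 in FoxP1SkmKO mice (-0.40 in WT, SE 0.08, adjusted p = 0.00175). In each of these 3 genes the 2 WT control mice were the highest of the 8 mice taken at CT26, and the control mice of the other genotype also stood above its KPC mice.

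Rpl37a, a small zinc-binding protein of the large subunit, showed the largest fall among genes above 10 FPKM: 64.4 and 59.5 FPKM in WT control against 43.5 and 37.8 in WT KPC mice (-0.61, SE 0.14, adjusted p = 0.00452), with 49.1 and 43.0 against 39.7 and 41.2 in FoxP1SkmKO mice. The stalk genes fell too: Rplp1 from 804 and 697 FPKM to 583 and 605 (-0.34, SE 0.09, adjusted p = 0.0214), Rplp0 from 170 and 159 to 141 and 127 (-0.30, SE 0.09, adjusted p = 0.0282) and Rplp2 by 0.34 on the log2 scale (SE 0.11, adjusted p = 0.0450). Rpsa, also known as the laminin receptor, fell from 139 and 116 to 105 and 95.5 FPKM (-0.35, SE 0.10, adjusted p = 0.0278). WT control and WT KPC mice did not overlap in Rpl37a, Rplp1, Rplp0 or Rpsa. Rps6, the substrate of S6 kinases, was at 111 and 94.1 against 87.7 and 85.4 FPKM and was not among the genes called. The other called genes fell by 0.28 (Rpl18) to 0.49 (Rps29), except for Rps18-ps5, a copy of Rps18 with 3.98 FPKM on average, at -1.42 (SE 0.44, adjusted p = 0.0412).

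**Figure D4:**
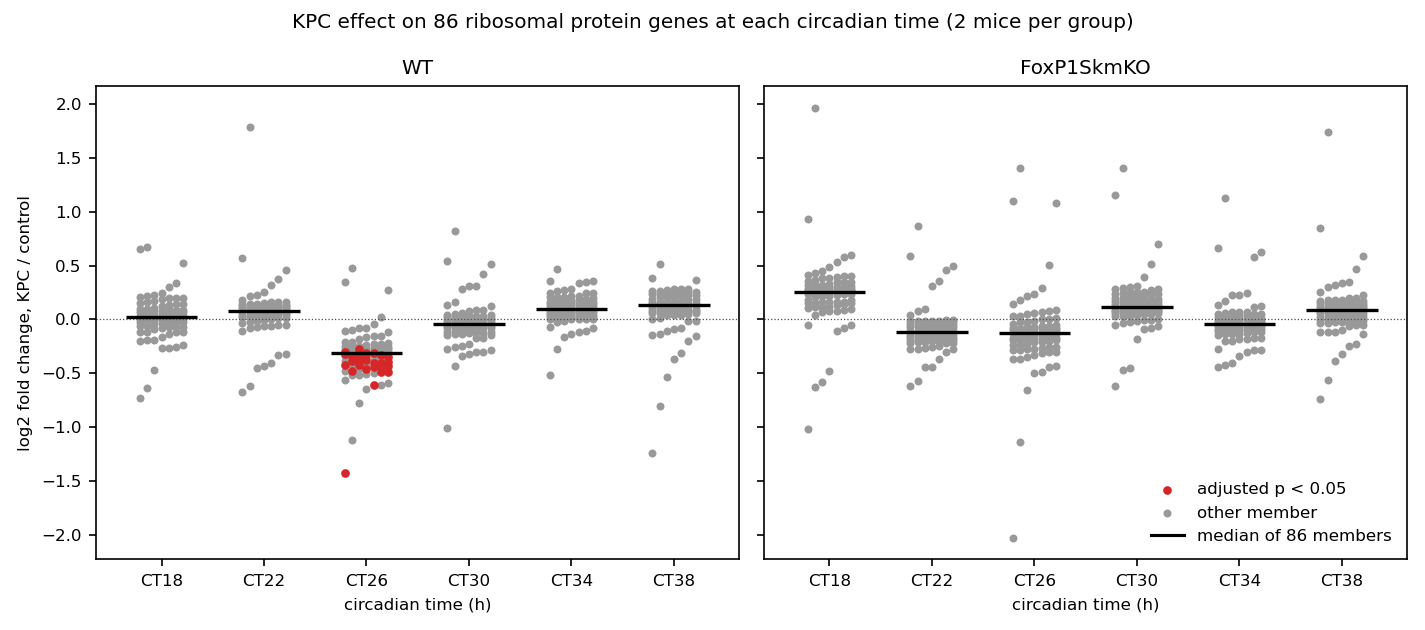
Log2 fold change of KPC against control for each of the 86 tested ribosomal protein genes (points) at each circadian time, in WT (left) and FoxP1SkmKO mice (right), 2 mice per group. Red marks an adjusted p under 0.05 and the black bar the median, which was -0.32 in WT at CT26 and 0.26 in FoxP1SkmKO at CT18.

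The WT control mice at CT26 also stood above WT control mice of the other times. Within WT control mice, in a contrast added after the data were seen, 52 of 86 genes were higher at CT26 than at the other 5 times and 0 were lower (23.4% of all genes called, 11.5% higher), with a median of 0.31. Leaving out 1 of the 48 libraries at a time gave medians of 0.26 to 0.33. The count was 23 after the trend on gene length was removed. Shares of all genes called after that removal are not given for this contrast or those below. Such counts alone do not show whether ribosomal protein genes shifted more than other genes. Rps14 was 0.48 higher on the log2 scale (SE 0.07, adjusted p = 5.36e-06). The same contrast called 0 genes in WT KPC mice (7 with an unadjusted p under 0.05, 11.1% of all genes, and 0.793% of all genes called), 0 in FoxP1SkmKO control mice (10 against 13.3% of all genes, 0.269% called) and 9 in FoxP1SkmKO KPC mice (8 lower and 1 higher, 1.75%). Against FoxP1SkmKO control mice at CT26, the same 2 WT control mice gave 23 genes lower in FoxP1SkmKO and 0 higher (6.03% of all genes called, 2.29% lower), median -0.30, and 5 after the trend on gene length was removed. This comparison and that of KPC with control in WT share the 2 control mice. A test of the KPC effect at CT26 against its mean at the other 5 times in WT, added after the data were seen, called 36 of 86 genes, all lower (5.65% of all genes, 1.88% lower), or 8 after the trend on gene length was removed, and 0 in FoxP1SkmKO mice (0% of all genes), where 31 had an unadjusted p under 0.05 (8.75% of all genes). The difference between the genotypes in the KPC effect at CT26 itself was called for 0 of 86 genes, against 0.345% of all genes, and 15 had an unadjusted p under 0.05 (11% of all genes).

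The calls for KPC in WT at CT26 depended on replicate 1 of the WT control mice. Without it the median was -0.26, with the remaining control mouse assumed to vary like the other groups. After the trend of counts on gene length was removed in each library, 3 of 86 were called. The share of all genes called in that setting is not given here. Ribosomal protein genes are short, with a median of 1736.5 exonic bases against 4045 for all tested genes, and 4642 other genes were no longer than the upper quartile of the members (2676 bases). These other short genes were called lower in 240 cases and higher in 50 for KPC in WT at CT26 (6.25%), with a median of -0.17 against -0.32 for the ribosomal protein genes. The part of length in the result was not tested beyond these values.

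Measured against the mean of all 48 libraries, the ribosomal protein genes had a median deviation of 0.32 and 0.25 on the log2 scale in the 2 WT control mice at CT26, and the other short genes 0.15 and 0.12. Of the 24 groups, WT control at CT26 had the highest value for both sets (0.28 and 0.14) and FoxP1SkmKO control at CT18 the lowest for both (-0.27 and -0.08). A set of 7813 long genes had -0.13 and -0.07 in the 2 WT control mice at CT26. For these long genes that group had the lowest value (-0.10).

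**Figure D5:**
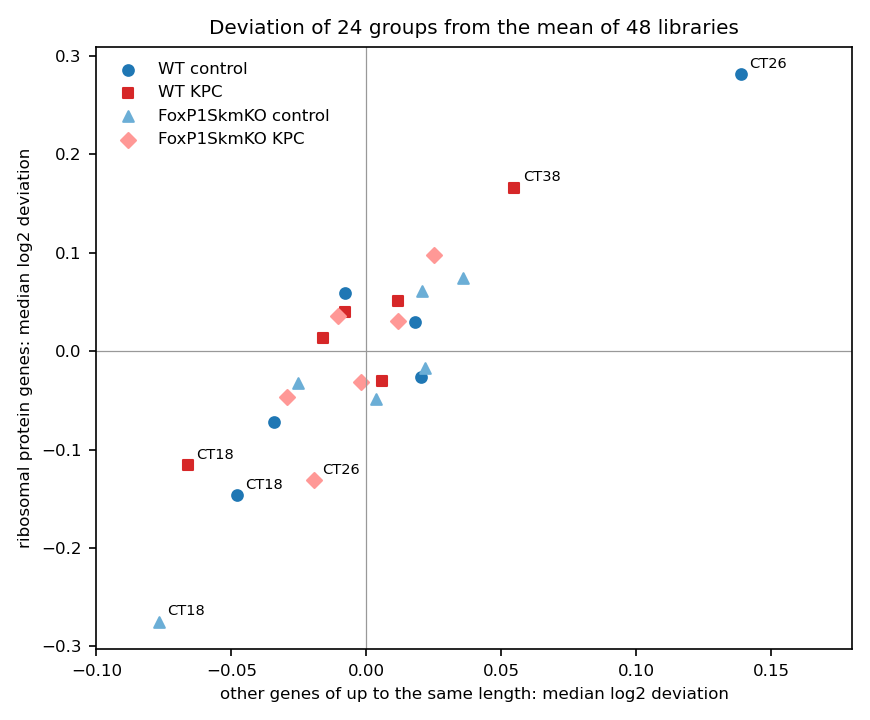
Median log2 deviation from the mean of 48 libraries of the 86 ribosomal protein genes (vertical axis) against that of 4642 other genes of up to the same length (horizontal axis), one point for each of the 24 groups, with symbols by genotype and condition. WT control at CT26 is at the upper right (0.28 and 0.14) and FoxP1SkmKO control at CT18 at the lower left (-0.27 and -0.08).

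Of the genes around the ribosome, a few moved with KPC in WT at CT26. Among the TOP mRNAs outside the ribosome 3 of 15 fell and 0 rose: Eef1b2 (-0.36, adjusted p = 0.0136) and Eef1d (-0.29, adjusted p = 0.0457), which encode exchange factors of elongation, and Tpt1 (-0.26, adjusted p = 0.0360). Among other translation factors Eif5a fell (-0.35, adjusted p = 0.00295) and Eif4g3 (0.38, adjusted p = 0.00438) and Gspt1 (0.31, adjusted p = 0.0290) rose, of 24. Of 35 biogenesis genes Polr1a, the large subunit of RNA polymerase I, rose (0.43, adjusted p = 0.00396) and Nop16 (-0.59, adjusted p = 0.0133) and Nip7 (-0.51, adjusted p = 0.0417) fell. Of 26 regulators 3 rose: Tsc1 (0.66, adjusted p = 1.39e-05), Mtor, the kinase itself (0.51, adjusted p = 0.00175), and Rptor, its partner in the complex that controls TOP mRNAs (0.47, adjusted p = 0.00314). Fau (-0.33, adjusted p = 0.0702) and Rack1 (-0.21, adjusted p = 0.0983) did not pass. Of 65 ribosomal protein pseudogenes tested 5 were lower and 0 higher, with a median of -0.24. All these comparisons use the same WT control mice at CT26, and their values after removal of the trend on gene length are not given here.

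Markers of other cells were set beside this result, with summed FPKM over every gene of a list in the table and counts over those tested. The summed FPKM of 8 red blood cell genes was 246 to 330 in the WT control mice at CT26 and 161 to 178 in the WT KPC mice, with 81.8 to 223 in WT control mice at other times, and none of the 5 tested was called (median -0.75). Of fast fiber genes 2 of 10 fell and 1 rose, summing to 49920 to 54810 FPKM in the control and 48600 to 51610 in the KPC mice. Of 12 general skeletal muscle genes, many of them the same, 2 fell and 2 rose, with sums of 76950 to 85600 and 74170 to 75420. Of 11 endothelial genes 1 fell and 1 rose (147 to 160 against 142 to 148), and of 9 tested adipocyte genes 1, Fabp4, fell (1051 to 1071 against 1020 to 1097). No gene was called among the 10 slow fiber genes (1359 to 1534 against 1166 to 1303), 12 macrophage genes (35.1 to 38.2 against 31.6 to 38.6), 3 neutrophil genes (0.804 to 1.58 against 0.946 to 2.31), 1 lymphocyte gene (0.646 to 0.855 against 0.414 to 1.28), 10 fibroblast genes (164 to 191 against 132 to 136), 10 satellite cell genes (50.2 to 55.3 against 40.4 to 52.8), 4 epithelial and acinar genes (0.319 to 0.433 against 0.374 to 0.575) or 7 proliferation genes (4.67 to 5.87 against 4.86 to 5.45). Their part in the result was not tested.

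At the other 11 combinations of genotype and time, 0 of 86 genes were called for KPC, against 0% of all genes at CT18, CT22 and CT34, 0.0064% at CT30 and 0.0256% at CT38 in WT mice, and 0.0192% at CT18, 0.0384% at CT26, 0.0064% at CT38 and 0% at the other times in FoxP1SkmKO mice. In WT mice the unadjusted p was under 0.05 for 3 genes at CT18 (6.23% of all genes), 1 at CT22 (4.76%), 4 at CT30 (5.19%), 9 at CT34 (6.06%) and 20 at CT38 (9.84%). The genes with the lowest p were Rpl23a at CT18 (0.34, SE 0.14, adjusted p = 0.710), Rps19 at CT22 (0.32, SE 0.14, adjusted p = 0.9999), Rps13 at CT30 (0.54, SE 0.18, adjusted p = 0.734), Rpl32 at CT34 (0.24, SE 0.09, adjusted p = 0.776) and Rps27a at CT38 (-1.24, SE 0.32, adjusted p = 0.186). In FoxP1SkmKO mice they were Rps2 at CT22 (-0.24, SE 0.10), Rps14 at CT26 (-0.37, SE 0.09, adjusted p = 0.1802), Rpl22 at CT30 (0.25, SE 0.08) and Rps29 at CT34 (-0.43, SE 0.14) and CT38 (0.47, SE 0.14). The unadjusted p was under 0.05 for 8 genes at CT22 (4.62% of all genes), 19 at CT26 (8.9%), 16 at CT30 (8.95%), 4 at CT34 (4.04%) and 8 at CT38 (8.06%).

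CT18 in FoxP1SkmKO mice came closest to a change. There 42 of 86 genes had an unadjusted p under 0.05, all higher with KPC (13.8% of all genes), the median was 0.26, and both KPC mice stood above both control mice in 55 genes (21.3% of all genes), but edgeR called 0 and DESeq2 on all libraries 12 of 79, all higher. The share of all genes that DESeq2 called is not given here. Leaving out 1 of the 4 libraries at a time gave medians of 0.11 to 0.31. Rpl32, which had the lowest p, was at 61.4 and 67.1 FPKM in control and 79.7 and 87.2 in KPC mice (0.39, SE 0.09, adjusted p = 0.0725). The control mice of this group had the lowest ribosomal protein levels of the 24 groups, as given above.

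Levels were low at CT18. Over all mice, in a contrast also added after the data were seen, 54 of 86 genes differed between CT18 and the other 5 times, 51 lower and 3 higher, against 20.4% of all genes called (11.4% lower and 9.02% higher). The median was -0.18, and both subunits were among them (20 of 34 small subunit genes called, all lower, and 33 of 51 large subunit genes, 30 lower). The median deviation of the members at CT18 was -0.15 in WT control, -0.12 in WT KPC, -0.27 in FoxP1SkmKO control and -0.05 in FoxP1SkmKO KPC mice. The other short genes had -0.05, -0.07, -0.08 and -0.03, ranking 22, 23, 24 and 20 of the 24 groups. The count of genes called at CT18 after removal of the trend on gene length is not given here.

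Rpl35a, a large subunit protein affected in some cases of Diamond-Blackfan anemia, showed the lowest p. It ran from 5.07 through a median of 5.58 to 8.95 FPKM in the 8 mice at CT18 and from 6.06 through 10.04 to 13.7 in the 40 others (-0.71, SE 0.09, adjusted p = 5.01e-07). The ranges overlapped, but the median of the other times lay above every CT18 mouse. Rpl11, which with RPL5 binds MDM2 when ribosome assembly fails, ran from 20.8 through 26.0 to 33.8 FPKM at CT18 and from 26.1 through 32.8 to 39.9 at the other times (-0.32, SE 0.04, adjusted p = 7.78e-07). Rpl37 ran from 16.4 through 18.5 to 24.6 against 20.3 through 25.7 to 32.4 FPKM (-0.42, SE 0.05, adjusted p = 1.05e-06). In both genes the CT18 median lay below the lowest mouse of the other times.

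Falls of at least 0.40 on the log2 scale at CT18 were also seen in Rps28 (-0.64), Rpl9-ps6 (-0.57), Rps27a (-0.52), Rpl22l1 (-0.45), Rpl36a (-0.42) and Rps19 (-0.40). The 3 genes that were higher were Rplp0 (0.11, SE 0.03, adjusted p = 0.0203), Rpl3 (0.17, SE 0.05, adjusted p = 0.0218) and Rpl24 (0.82, SE 0.24, adjusted p = 0.0119), the last at 0.913 FPKM against 0.450 (medians). Rpl3l fell (-0.14, SE 0.03, adjusted p = 0.000831) while Rpl3 rose. By group, CT18 gave 7 genes in WT control (1.62% of all genes), 21 in WT KPC (6.77%), 40 in FoxP1SkmKO control (5% of all genes) and 1 in FoxP1SkmKO KPC mice (1.64%), all lower; whether these counts differ was not tested.

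Around the ribosome at CT18, Fau fell (-0.21, adjusted p = 0.000651) and Rack1 rose (0.12, adjusted p = 0.00514). Of TOP mRNAs outside the ribosome 2 rose and 2 fell of 15, among them Npm1 (-0.23), Hnrnpa1 (-0.15) and Eef1a1 (0.18). Of other translation factors 2 rose and 4 fell of 24, of biogenesis genes 2 rose and 8 fell of 35, with Emg1 (-0.21), Rrp9 (-0.20) and Fbl (-0.20) first, and of regulators 3 rose and 2 fell of 26. Of 12 macrophage markers 10 rose at CT18 (median 0.70, Csf1r 0.85), of 10 fibroblast markers 4 rose, of 10 fast fiber genes 4 fell (Pvalb -0.25), of 7 proliferation genes 2 rose, and of 5 tested red blood cell genes 2 rose. Of 9 adipocyte and of 11 endothelial genes 1 each rose and 1 fell, Myod1 rose among 10 satellite cell genes (0.75), Krt18 rose among 4 epithelial genes, and no slow fiber, neutrophil or lymphocyte gene was called. Their part in the CT18 result was not tested.

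The other times differed less. Against the remaining times over all mice, 1 gene was higher at CT22 (Rplp1, 0.12; 8.08% of all genes called), 9 were higher and 3 lower at CT26 (20.5%), 10 higher at CT30 (9.23%), 8 higher and 3 lower at CT34 (14.2%) and 14 higher at CT38 (8.6%). Rpl22l1 and Rps27l were lower at CT26 (-0.22 and -0.22) and higher at CT34 (0.29 and 0.21). Rpl22l1 also had the lowest p at CT38 (0.34, SE 0.06, adjusted p = 0.000553).

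A 24 h sinusoid averaged over the 4 combinations of genotype and condition was called for 48 of 86 ribosomal protein genes, against 39.8% of all genes. Amplitudes, the distance from mean to peak, were small, with a median of 0.09 on the log2 scale against 0.11 for all genes. Of the 48, 29 peaked between CT30 and CT34, 10 between CT22 and CT26 and 7 between CT26 and CT30. Rpl35a had an amplitude of 0.37 with a peak at CT32.46 (adjusted p = 2.28e-07), Rpl9-ps6 0.35 at CT32.93 (adjusted p = 2.33e-07), Rpl22l1 0.26 at CT34.01 (adjusted p = 2.24e-06), Rpl36a 0.20 at CT33.40 (adjusted p = 1.21e-05) and Rps21 0.23 at CT32.69 (adjusted p = 1.44e-05). For Rpl35a the sinusoid spans 1.67-fold from trough to peak. The data cover a single day, and without the 2 WT control libraries at CT26, 30 of 86 were called (32.9% of all genes).

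Within groups, 44 of 86 genes were called in WT control mice (18.4% of all genes), 8 in WT KPC (11.2%), 20 in FoxP1SkmKO control (8.24%) and 9 in FoxP1SkmKO KPC mice (6.97%). In WT control mice 16 of the 44 peaked between CT22 and CT26 and 23 between CT26 and CT30, and low p were those of Rpsa (amplitude 0.24), Rplp1 (0.22), Rpl19 (0.20) and Rpl37a (0.31). The median deviation of the members in WT control mice was -0.15, -0.03, 0.28, 0.06, -0.07 and 0.03 from CT18 to CT38. It was thus highest at CT26, with the other times well below. These contrasts do not take departures of the times from the wave as error. A call therefore does not show that the levels followed a wave. How many of the 44 calls rest on the CT26 mice was not tested. In WT KPC mice the peaks of the 8 lay after CT30, among them those of Rpl9-ps6, Rpl22l1, Rpl22 and Rpl35a (0.14 to 0.39). In FoxP1SkmKO control mice Rpl11 (0.21), Rpl9-ps6 (0.43), Rpl35a (0.44), Rplp2 (0.21) and Rpl35 (0.23) led, with 10 of 20 peaks between CT30 and CT34, and in FoxP1SkmKO KPC mice Rpl36a (0.28), Rpl35a (0.41), Rps2 (0.18), Rpl22l1 (0.29) and Rps3 (0.14).

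The difference of the rhythm between KPC and control mice was tested directly. In WT mice it was called for 1 of 86 genes, against 0.384% of all genes, and 44 had an unadjusted p under 0.05 (13.5% of all genes). Rplp0 (amplitude of the difference 0.23, adjusted p = 0.0549), Rps15 (0.24, adjusted p = 0.0554) and Rpl37a (0.37, adjusted p = 0.0565) did not pass. In WT mice DESeq2 called 19 of 77 genes, edgeR without the filter on low counts called 17 of 90, and the count was 0 after scaling by total counts or removal of the length trend. Shares of all genes called in these settings are not given here. Leaving out 1 library at a time gave 0 to 7 genes, with 0 in 15 of 48 cases, replicate 1 of the WT control mice at CT26 among them. In FoxP1SkmKO mice 0 of 86 were called by edgeR and 0 of 82 by DESeq2, with 21 under an unadjusted p of 0.05 (10.9% of all genes, 0.0064% called). The lowest p there were those of Rps27rt (1.39, adjusted p = 0.0913), which is uncertain as said above, Rpl11 (0.24), Rpl9 (0.22), Rps15 (0.20) and Rpl10a (0.18).

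On FPKM values, a sinusoid in each group with a p under 0.01 was found for 1 gene in WT control (Rpl23, amplitude 4.33 FPKM on a mean of 30.5, 4.92% of all genes), 0 in WT KPC (4.22%), 4 in FoxP1SkmKO control (Rpl9-ps6, Rps21, Rps27rt and Rpsa, 4.07%) and 0 in FoxP1SkmKO KPC mice (2.63%). With a Benjamini-Hochberg threshold 0 genes passed in any group. Unlike the contrasts on counts, this F test takes departures of the times from the wave as error.

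Averaged over the 6 times, most ribosomal protein genes had slightly lower values in FoxP1SkmKO than in WT control mice, with 1 gene called. In this average 77 of 86 values were below 0, and the median was -0.05 against 0.00 over all genes. The unadjusted p was under 0.05 for 14, all lower (17.2% of all genes). The share of all genes below 0 is not given here. By time, the median deviation of the members was lower in FoxP1SkmKO than in WT control mice at CT18 (-0.27 against -0.15) and CT26 (-0.02 against 0.28). It was also lower at CT30 (-0.03 against 0.06) and CT38 (-0.05 against 0.03). At CT22 (0.07 against -0.03) and CT34 (0.06 against -0.07) it was higher. Rpl9-ps6 was called (3.45% of all genes): it ran from 10.3 through a median of 15.3 to 20.2 FPKM in 12 WT control mice and from 9.01 through 12.0 to 17.8 in 12 FoxP1SkmKO control mice (-0.29, SE 0.08, adjusted p = 0.0442). The groups overlapped over most of their range, and its reads may come from Rpl9. No gene was called with scaling by total counts, with the length trend removed, without CT18, CT26 or CT38, or in 18 of 48 cases in which 1 library was left out, and 6 were called without CT34. Rps20 (-0.12, SE 0.04, adjusted p = 0.0818) and Rps14 (-0.11, SE 0.04, adjusted p = 0.0937) followed. The largest values were those of Rpl29 (-0.72, SE 0.50), Rpl10-ps3 (-0.51, SE 0.32) and Rpl24 (-0.35, SE 0.27), none called.

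In KPC mice 0 of 86 genes were called for genotype by edgeR and by DESeq2 (0.352% of all genes), 4 had an unadjusted p under 0.05 (10.8%) and the median was -0.03. Rpl9-ps6 was again lowest in p (-0.18, SE 0.08, adjusted p = 0.419), and Rpl29 (-0.39, SE 0.47), Rps27a (0.27, SE 0.13) and Rpl10-ps3 (-0.24, SE 0.31) had the largest values. Around the ribosome in control mice, genotype changed Nap1l1 (0.17) among the TOP mRNAs, Etf1 (-0.16) and Eif5a (-0.12) among other translation factors, Polr1a (0.14) among biogenesis genes and Rps6ka3, an RSK kinase (-0.27, adjusted p = 0.00244), among regulators. Rack1 and Fau gave 0.00 and were not called.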

How the data were processed

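Tibialis anterior poly(A) RNA of 48 mice was sequenced. The authors mapped reads to mm39 (STAR per the methods, HISAT2 2.0.5 per the submitters' processing notes) and deposited raw counts per gene from HTSeq and FPKM per gene; whether counting used strand is not given in the sources used here. The authors' normalized, group mean and comparison columns were not used. Totals of 14480446 to 20787135 counts limit precision for genes under 1 FPKM.

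Deposited counts were fitted with edgeR 4.0.16 (R 4.3.3): 24 groups, filterByExpr, TMM factors, quasi-likelihood tests and Benjamini-Hochberg adjustment over 15637 genes, called at an adjusted p under 0.05. Averages over times, single times, times against the others and 24 h sinusoids were contrasts of that fit. DESeq2 1.42.0 and other normalization, filter, length and replicate settings were alternatives. The scripts were tested on simulated data. Deposited FPKM values served for levels and for an F test of a sinusoid per group.

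The members and gene lists were chosen with earlier results of these data known. Genes are named by a fixed rule (paralog pairs, stalk and other chosen members, lowest p, largest change, highest and lowest level). Members outside it, such as Rps15, Rpl37a and the further genes of CT18 and CT26, were chosen after their values were seen. Results for some genes that the rule names are not reported here. Replicate numbers did not pair the mice: deviations of same-numbered mice correlated at -0.32 to 0.23 (276 pairs of groups).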

Additional observations from a re-analysis of the deposited data

Results flagged for a closer look

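The difference of the 24 h rhythm between KPC and control WT mice was called for 1 ribosomal protein gene (edgeR quasi-likelihood). DESeq2 on the same 48 libraries called 19, edgeR without the filter on low counts 17, and leaving out 1 library gave 0 to 7. A test of the KPC effect in WT mice at CT26 against its mean at the other 5 times differed for 36 ribosomal protein genes, all lower at CT26, and for 8 after the trend on gene length was removed. This test was added after the data were seen. Shares of all genes called in the alternative settings are not given here. Both comparisons include the 2 WT control mice at CT26, and the first count was 0 without replicate 1 of them.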

How the results depend on the processing

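Counts are ribosomal protein genes called. Except for the rhythm without the WT control libraries at CT26, shares of all genes in these settings are not given. The counts therefore do not show whether ribosomal protein genes shifted more than other genes. Without the filter on low counts they were 2 (KPC in WT), 1 (difference of KPC effects), 5 and 1 (genotype in control and KPC mice), 17 and 7 (difference of rhythm in WT and FoxP1SkmKO mice), 3, 1, 2 and 5 (KPC in WT at CT18, CT22, CT30 and CT38) and 15, 4, 4, 2, 1 and 5 (FoxP1SkmKO from CT18 to CT38). Scaling by total counts gave 0 for genotype in control mice and 0 for the difference of rhythm in WT. Removing the length trend gave 0 for both, 3 for KPC in WT at CT26, 23 for CT26 against other times in WT control, 5 for genotype at CT26 and 8 for CT26 minus other times. Genotype in control mice gave 0 without CT18, CT26 or CT38, 2 without CT22, 6 without CT34 and 0 from either replicate number alone. The rhythm gave 17 without replicate 1, 12 without replicate 2 and 30 without the WT control libraries at CT26. The settings with 1 replicate number used a model in which time adds equally in all groups. The setting without the WT control libraries at CT26 used 1 sinusoid common to all groups. These counts therefore differ from the main fit in model as well as in mice. The replicate block gave 0 for the difference of rhythm in WT, 27 for KPC in WT at CT26 and 47 for the rhythm, and the numbers do not pair the mice. DESeq2 on 48 libraries gave 19 for the difference of rhythm in WT, and 12 and 1 for FoxP1SkmKO at CT18 and CT26. On the 4 libraries of a time, edgeR gave 1, 8 and 1 (WT at CT18, CT26, CT38) and 1, 1 and 1 (FoxP1SkmKO), and DESeq2 gave 1 and 1 (WT at CT18 and CT38) and 1, 2 and 1 (FoxP1SkmKO). On FPKM the rhythm gave 0 after adjustment in WT control and FoxP1SkmKO control mice, and 3 in WT control on log2 values or TMM-scaled CPM. Leaving out 1 library gave 0 to 39 for KPC in WT at CT26 (0 without WT control replicate 1), 0 to 1 for FoxP1SkmKO at CT26, 0 to 13 for FoxP1SkmKO at CT18 (13 without KPC replicate 1), 0 to 2 for genotype in control mice, 40 to 48 for the rhythm, 0 to 7 for its difference in WT, 40 to 55 for CT18, 20 to 57 for CT26 in WT control, and 0 to 6, 0 to 3, 2 to 5 and 0 to 2 for the FPKM rhythm. The cause of these shifts was not tested. Of the named genes, 0 reversed.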
